A study of Mus musculus with 6 samples.

Results

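Transcripts of 10 genes used as markers of Müller glia were followed in flow-sorted rod photoreceptors of the mouse retina. The genes were Slc1a3, Glul, Rlbp1, Apoe, Clu, Dkk3, Vim, Dbi, Crym and Aqp4, chosen by name from 52143 genes in the deposited table, each with 1 entry on a main chromosome. In the libraries labelled Jun knockdown (3 replicates), newborn eyes had received a plasmid for a short hairpin RNA (shRNA, 1 hairpin clone) against Jun at 2.5 µg/µl. In the control libraries (3 replicates) the plasmid was the pLKO.1-Scrambled vector at the same concentration. Both groups also received an EGFP reporter driven by the Nrl promoter (Nrlp-EGFP, 1.5 µg/µl), both plasmids were electroporated at birth (day 0), and cells with EGFP were collected by flow sorting at an age of 10 days. The reporter marks cells in which the Nrl promoter is active, and only electroporated cells of a retina carry it. Strain, sex and the number of animals behind a library are not given in the sources used here, so each p-value measures the spread between these libraries, which may be partly technical.

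Müller glia are the radial glia of the retina and span its whole thickness, wrapping the cell bodies of photoreceptors. They clear glutamate released by neurons and turn it into glutamine, bind and recycle visual-cycle retinoids, secrete lipoproteins and chaperones, and move water and potassium between retina and vitreous.

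Library totals were 13211300 to 13998400 estimated counts in the libraries labelled Jun knockdown and 32150100 to 105801000 in controls, so depth moved with the group. Levels are given as CPM, counts scaled to library size with the trimmed mean of M-values (TMM). Jun itself stood at 1.84, 17.6 and 19.3 CPM in labelled libraries and at 6.47, 5.85 and 7.16 CPM in controls, so it was below the controls in 1 of 3 labelled libraries (edgeR log2 fold change 0.99, SE 1.44, adjusted p = 0.764). Each direction below therefore contrasts libraries by their label. A list of 10 rod genes, among them Sag and Gnat1, summed to 6935 to 10014 CPM in labelled libraries and to 83315 to 105652 CPM in controls. Microglia genes (10 listed) summed to 1.75 to 5.69 CPM in labelled libraries and to 823 to 1112 CPM in controls. Of these, 8 of 10 were under 1 CPM in all 3 labelled libraries and 1 of 10 in all 3 controls. The part of depth, of the rod signal and of microglial RNA in the values of the marker genes was not tested. Microglia and astrocytes also make Apoe and Clu, and neurons make some Dbi and Crym. In bulk samples, fewer cells of a type and less RNA per cell cannot be told apart.

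The 10 genes had mostly lower levels in the libraries labelled Jun knockdown, but they did not move as a block. Apoe, Glul, Clu, Crym and Rlbp1 were lower in 3 of 3 labelled libraries with no overlap between groups, Dkk3 and Vim overlapped, Dbi and Slc1a3 overlapped with small fold changes, and Aqp4 was higher in 2 of 3 labelled libraries. Of the 10 genes, 0 passed an adjusted p of 0.05 in edgeR's quasi-likelihood test, in which 1.67% of 12815 tested genes passed in either direction and 1.35% as lower. At an unadjusted p under 0.05, 4 of 10 were lower (Clu, Apoe, Crym and Glul), against 10.7% of tested genes. The 5 genes whose groups did not overlap compare with 15.7% of tested genes that were lower without overlap. The log2 fold change was negative for 8 of 10, against 52.1% of tested genes. Its median was -2.61 over the 10 and -0.12 over all tested genes. With other tools some of the 10 passed as lower, namely 3 with DESeq2 (Glul, Apoe and Clu, where 7.38% of genes with an adjusted p passed as lower) and 2 with limma-voom (Apoe and Clu, 2.46%). With limma-trend on the deposited normalised values, Apoe, Clu and Crym passed as lower with either pseudocount, where 4% (0.5 added) and 3.71% (2 added) of genes did. Without the filter on low counts, 5 passed in edgeR, where 1.73% of genes passed as lower.

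**Figure D1:**
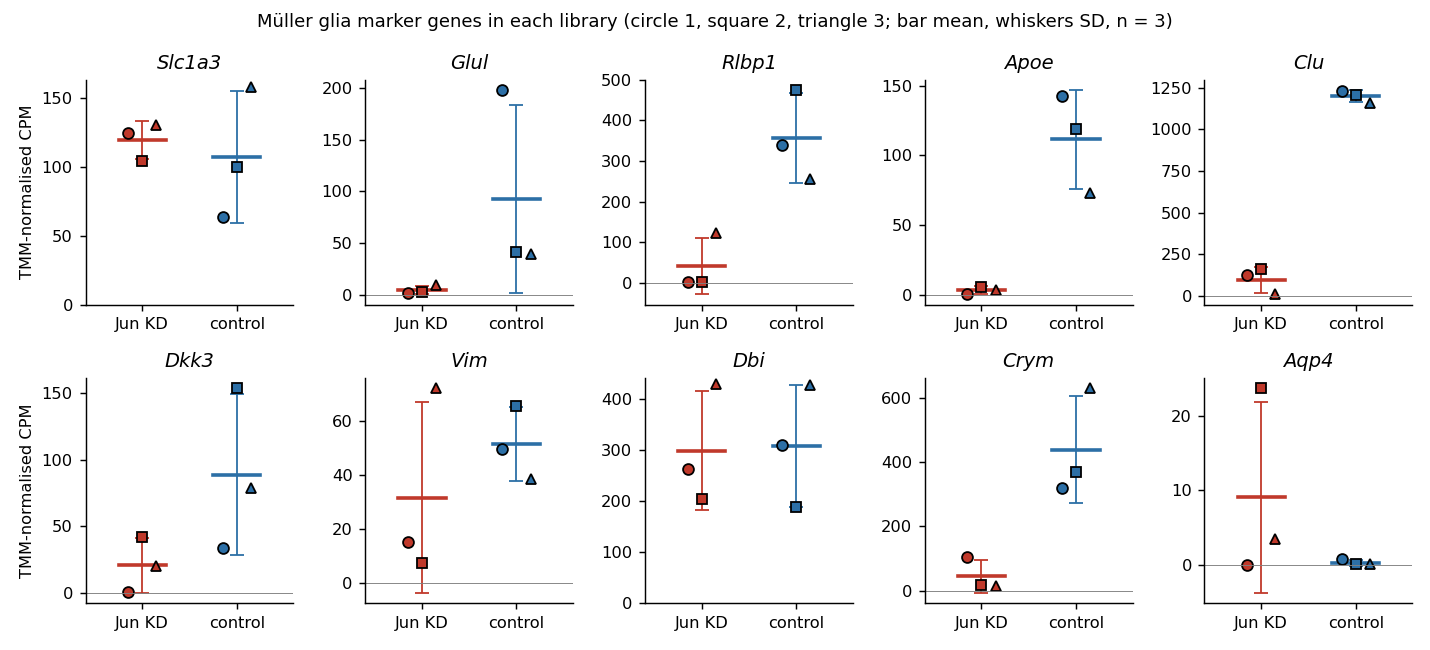
TMM-normalised CPM of each of the 10 genes (y axes, linear and on a different scale in each panel) in the 3 libraries labelled Jun knockdown (red, left) and the 3 control libraries (blue, right); symbols are replicates 1 to 3, the thick bar is the mean and whiskers are the SD. Clu stands at 1160 to 1233 CPM in all controls and at no more than 159 CPM in labelled libraries, whereas Dbi and Slc1a3 overlap between groups.

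**Figure D2:**
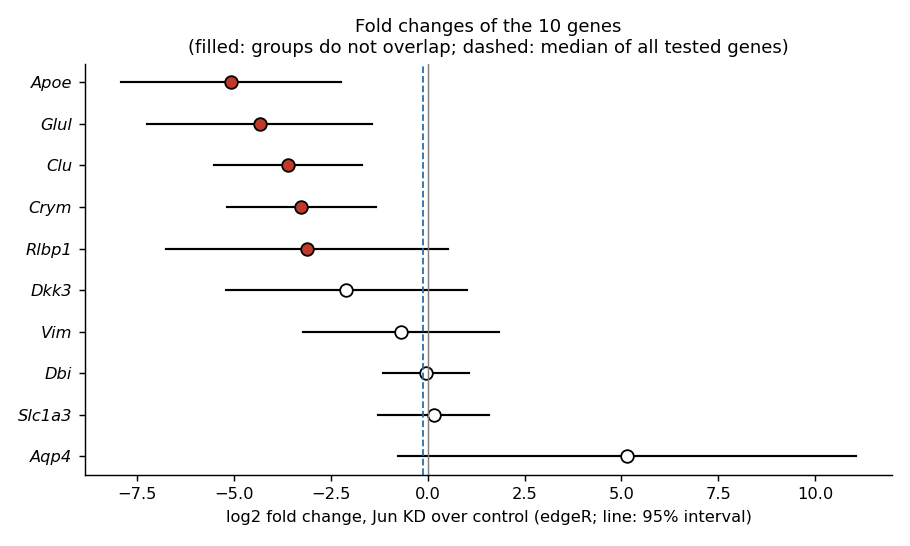
Log2 fold change of each gene in libraries labelled Jun knockdown over controls (points) with 95% intervals from edgeR's quasi-likelihood fit (lines); filled points mark genes whose groups do not overlap, and the dashed line is the median of all tested genes, -0.12. Intervals of Apoe, Glul, Clu and Crym lie below 0, and that of Rlbp1 reaches 0.52.

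Glutamate uptake and recycling were represented by Slc1a3, the glial glutamate transporter GLAST, and Glul, glutamine synthetase, which turns glutamate into glutamine. The pair differed in pattern. Glul (ENSMUSG00000026473, chromosome 1, 153899944 to 153909723, GRCm38) stood at 1.43, 2.99 and 9.36 CPM in the libraries labelled Jun knockdown and at 198, 41.4 and 39.1 CPM in controls. Control replicate 1 held most of the Glul signal among controls, and each labelled library lay below each control. The log2 fold change was -4.34 (SE 1.29, edgeR adjusted p = 0.130). Glul rested on 21.3, 52.7 and 143 estimated counts in the labelled libraries and on 1086 to 7229 in controls. Its shorter protein-coding form (ENSMUST00000139476) was listed at 0 in each labelled library and stood at 27.0, 6.05 and 2.20 CPM in controls on the transcript scale (edgeR adjusted p = 0.114).

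Slc1a3 (ENSMUSG00000005360, chromosome 15, 8634124 to 8710764) stood at 124, 104 and 130 CPM in the libraries labelled Jun knockdown and at 63.3, 99.96 and 158 CPM in controls. The groups overlapped, with a log2 fold change of 0.16 (SE 0.63, 95% interval -1.27 to 1.59, edgeR adjusted p = 0.920), an interval that still holds a change of more than 1 in either direction. Without control replicate 1 it was -0.15. The gene value hid a difference between its transcripts. The protein-coding form (ENSMUST00000005493) stood at 54.9, 40.3 and 66.4 CPM in labelled libraries and at 110, 208 and 270 CPM in controls, on the scale of the transcript table, where 0.662% of transcripts passed and none of the 10 genes' transcripts did. Each labelled library was below each control for this form (log2 fold change -1.86, SE 0.65, adjusted p = 0.203, edgeR over 20706 transcripts). An annotated retained-intron form (ENSMUST00000129325) stood at 27.5, 24.2 and 21.5 CPM in labelled libraries and at 0.502, 0 and 0 CPM in controls (adjusted p = 0.247). It was thus present in 3 of 3 labelled libraries, with 354 to 446 counts each, and held 16.3 counts in control replicate 1 and 0 in the other controls.

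Retained-intron forms took 33.5%, 40.3% and 31.2% of the transcript counts of Slc1a3 in the libraries labelled Jun knockdown and 0.506%, 0.116% and 0.957% in controls (exact two-sided permutation p = 0.1, the smallest that 3 against 3 libraries can give). Over all protein-coding genes, the retained-intron share was 8.49 ± 0.990% in the labelled libraries and 3.23 ± 0.405% in controls (SD, n = 3 each). In the other 9 marker genes together, these forms took 0% to 1.05% in the labelled libraries and 0.0316% to 0.727% in controls. Slc1a3 was singled out for this share after the values were seen.

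The sequences around the end of the third exon show what sets the protein-coding and retained-intron forms of Slc1a3 apart (GENCODE vM21, GRCm38, minus strand, chr15:8688128-8688327 for the retained-intron form). Exon bases are in lower case, and capitals mark what follows, intron in the retained-intron form and the fourth exon in the protein-coding form.
Retained-intron form: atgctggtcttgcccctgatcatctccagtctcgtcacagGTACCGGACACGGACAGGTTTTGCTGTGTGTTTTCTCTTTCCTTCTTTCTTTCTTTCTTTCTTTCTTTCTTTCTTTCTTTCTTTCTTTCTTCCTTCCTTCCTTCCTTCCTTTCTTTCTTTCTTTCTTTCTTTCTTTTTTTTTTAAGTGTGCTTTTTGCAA
Protein-coding form: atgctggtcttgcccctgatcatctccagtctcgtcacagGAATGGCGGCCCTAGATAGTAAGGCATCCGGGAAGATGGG
The retained-intron form runs 390 bases into an intron of 37234 bases and then ends. Those 390 bases hold a run of 113 bases made only of C and T, a low-complexity repeat. Reads from the same kind of repeat elsewhere in the genome can be assigned to such a form, and their part in its counts was not tested.

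Deposited gene counts were 1.25 to 1.48 times the sum of the Slc1a3 transcript counts in the libraries labelled Jun knockdown and 0.600 to 0.636 times that sum in controls. Gene values of Slc1a3 therefore depend on how transcripts were combined: when plain sums of the transcript counts were tested, the log2 fold change was -1.02 (edgeR adjusted p = 0.421) in place of 0.16. For Glul the ratio was 0.675 to 0.686 in the labelled libraries and 0.881 to 1.38 in controls. For Clu it was 0.891 to 0.910 in the labelled libraries and 0.954 to 0.969 in controls, so its gene and transcript values nearly coincided.

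**Figure D3:**
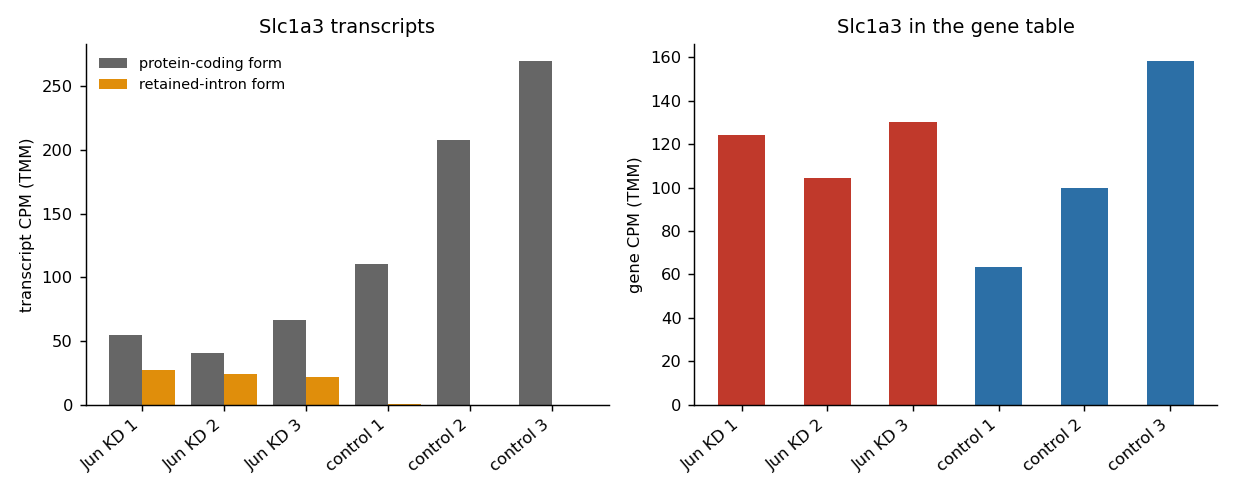
Left, TMM-normalised CPM of the protein-coding form (grey) and the retained-intron form (orange) of Slc1a3 in each library; right, CPM of Slc1a3 in the gene table (red, labelled Jun knockdown; blue, control). The protein-coding form is at 40.3 to 66.4 CPM in labelled libraries and at 110 to 270 CPM in controls, while the gene table puts the groups at overlapping levels.

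Rlbp1 encodes CRALBP, a protein of Müller glia and pigment epithelium that binds 11-cis retinoids. Rlbp1 (ENSMUSG00000039194, chromosome 7, 79374870 to 79387048) stood at 1.23, 0.677 and 122 CPM in the libraries labelled Jun knockdown and at 340, 475 and 256 CPM in controls. Labelled replicate 3 held nearly all the Rlbp1 signal of its group and was still below each control. The log2 fold change was -3.12 (SE 1.61, edgeR adjusted p = 0.361), and without labelled replicate 3 it was -8.57 (adjusted p = 0.00879, a fit in which 0.615% of genes passed as lower). Replicates 1 and 2 held 18.2 and 12.2 counts of Rlbp1, so their levels rest on few reads.

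The main Rlbp1 transcripts are both annotated as protein-coding and differ in the start and in the length of the third exon. That exon has 111 bases in the long-exon form (ENSMUST00000053718) and 29 bases in the short-exon form (ENSMUST00000179243). Their whole lengths are 2134 and 2142 bases, in that order, and other differences between them were not examined. The short-exon form stood at 0.00928, 0.485 and 1.36 CPM in the libraries labelled Jun knockdown and at 310, 303 and 212 CPM in controls (edgeR log2 fold change -8.81, SE 1.62, adjusted p = 0.0648 over all transcripts). The long-exon form stood at 1.28, 0 and 124 CPM in labelled libraries and at 94.6, 285 and 74.3 CPM in controls (adjusted p = 0.752). The Rlbp1 signal of labelled replicate 3 was thus 98.9% long-exon form, which made up 23.3%, 47.9% and 26.0% of the gene's transcript counts in controls. The forms share most of their bases, so the split of reads between them is an estimate.

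Among secreted proteins, Apoe encodes apolipoprotein E, the main lipid carrier of the nervous system, and Clu encodes clusterin, a secreted chaperone also called apolipoprotein J. Apoe (ENSMUSG00000002985, chromosome 7, 19696109 to 19699188) stood at 0.340, 5.87 and 3.66 CPM in the libraries labelled Jun knockdown and at 143, 119 and 73.0 CPM in controls. The groups were far apart, with a log2 fold change of -5.08 (SE 1.25, edgeR adjusted p = 0.0767), the lowest of the 10. Clu (ENSMUSG00000022037, chromosome 14, 65968483 to 65981547) stood at 125, 159 and 9.49 CPM in labelled libraries and at 1233, 1205 and 1160 CPM in controls. Clu varied little among controls and widely among labelled libraries, where replicate 3 held 145 counts, against 1837 and 2826 in replicates 1 and 2. Its log2 fold change was -3.61 (SE 0.84, adjusted p = 0.0652), and without labelled replicate 3 it was -3.10 and passed (adjusted p = 0.0155).

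Most Apoe signal came from the protein-coding form ENSMUST00000174355, which made up 75.6% of the gene's transcript counts over the libraries labelled Jun knockdown and 73.5% over controls. The longer protein-coding form ENSMUST00000174064 stood at 0, 1.84 and 0.702 CPM in labelled libraries and at 55.5, 16.2 and 17.4 CPM in controls (edgeR adjusted p = 0.308). A form annotated as a processed transcript, ENSMUST00000167646, was listed at 0 in each labelled library and stood at 3.90, 14.2 and 8.41 CPM in controls (edgeR adjusted p = 0.0995). For Clu, the form ENSMUST00000022616 held 100% over labelled libraries and 99.6% over controls. Dkk3, a secreted protein of the Dickkopf family of Wnt regulators (ENSMUSG00000030772, chromosome 7, 112116017 to 112159057), stood at 0.476, 41.7 and 19.9 CPM in labelled libraries and at 33.7, 154 and 78.9 CPM in controls. Labelled replicate 1 was nearly without Dkk3, and replicate 2 lay above control replicate 1, so the groups overlapped (log2 fold change -2.10, SE 1.37, edgeR adjusted p = 0.471).

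Vim encodes vimentin, the intermediate filament protein of radial glia. Vim (ENSMUSG00000026728, chromosome 2, 13573927 to 13582826) stood at 15.3, 7.56 and 71.9 CPM in the libraries labelled Jun knockdown and at 49.6, 65.5 and 38.4 CPM in controls. Labelled replicate 3 was above every control and the other labelled libraries were below every control, so the groups overlapped (log2 fold change -0.70, SE 1.12, edgeR adjusted p = 0.788). The value depended on single libraries, at -2.18 without labelled replicate 3, -0.41 without labelled replicate 1 and -0.24 without labelled replicate 2, and did not pass in any of them. In labelled replicate 3 the retained-intron form ENSMUST00000148248 stood at 6.95 CPM, while it was listed at 0 in the other 5, and the Vim gene count was 1.64 times the transcript sum, against 0.846 to 0.910 in the others. The protein-coding form ENSMUST00000028062 stood at 14.8, 8.56 and 33.8 CPM in labelled libraries and at 62.5, 90.0 and 45.0 CPM in controls, without overlap (log2 fold change -1.79, SE 1.05, adjusted p = 0.498, edgeR over transcripts).

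Crym encodes mu-crystallin, a cytosolic protein that binds thyroid hormone, and Dbi encodes the acyl-CoA binding protein. Crym (ENSMUSG00000030905, chromosome 7, 120186380 to 120202111) stood at 105, 16.7 and 15.2 CPM in the libraries labelled Jun knockdown and at 318, 368 and 629 CPM in controls. Labelled replicate 1 was the highest of its group, and each labelled library was below each control (log2 fold change -3.26, SE 0.85, edgeR adjusted p = 0.0878). Without labelled replicate 1, Crym was at -4.81 and passed (adjusted p = 0.0232, a fit in which 0.595% of genes passed as lower). Dbi (ENSMUSG00000026385, chromosome 1, 120113280 to 120121078) stood at 262, 203 and 428 CPM in labelled libraries and at 309, 188 and 426 CPM in controls. The ranges of Dbi nearly coincided, with a log2 fold change of -0.05 (SE 0.49, 95% interval -1.15 to 1.06, adjusted p = 0.971), an interval that still holds a 2-fold difference in either direction; the sign turned under several scalings. Dbi was the highest of the 10 in each labelled library.

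Aqp4 encodes aquaporin 4, the water channel of glial endfeet. Aqp4 (ENSMUSG00000024411) stood at 0, 23.7 and 3.40 CPM in the libraries labelled Jun knockdown and at 0.713, 0.0111 and 0.0360 CPM in controls. Labelled replicates 2 and 3 held 420 and 52.0 counts of Aqp4, and controls held 25.7, 1.0 and 1.0. In labelled replicate 1 the count of 0 allows up to 3 counts, or 0.204 CPM (counting error only). The log2 fold change of 5.14 (SE 2.62, edgeR adjusted p = 0.353) rests on labelled replicates 2 and 3 and has a 95% interval of -0.77 to 11.06. It was 2.72 without labelled replicate 2 and 8.44 without control replicate 1, and passed in neither. Aqp4 was thus nearly without signal in the libraries where Glul, Rlbp1 and Clu were highest.

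The check of the marker label gave a mixed picture. In controls, Clu, Rlbp1, Crym and Dbi were well covered, while Aqp4 was near 0. The wider list of 40 further Müller glia genes summed to 1538 to 2618 CPM in labelled libraries and to 3566 to 4219 CPM in controls, with 5 of 40 under 1 CPM in all labelled libraries and 2 of 40 in all controls. Levels within that list were uneven. Gpm6b, a membrane proteolipid, stood at 829, 210 and 651 CPM in labelled libraries and at 1052, 891 and 880 CPM in controls. Kcnj10, Sox9 and Sox2, often used to define the cell type, were low in both groups and were named after their values were seen. The potassium channel gene Kcnj10 stood at 2.04, 0.508 and 0.196 CPM in the libraries labelled Jun knockdown and at 2.28, 0.888 and 1.66 CPM in controls. The transcription factor gene Sox9 stood at 8.10, 0.508 and 0.0654 CPM in labelled libraries and at 3.13, 1.59 and 0.396 CPM in controls, and Sox2 at 0, 0 and 3.07 CPM in labelled libraries and 1.34, 0.0111 and 0 CPM in controls. Astrocyte markers (8 listed) summed to 205.1 to 382 CPM in labelled libraries and to 230 to 476 CPM in controls, and none of the 6 tested passed. The largest part of that sum in each library was Slc1a2, a glutamate transporter that neurons also make, at 170, 276 and 244 CPM in labelled libraries and 213, 94.4 and 442 CPM in controls. Gfap, the filament protein of astrocytes and reactive Müller glia, stood at 0.0681, 0.0564 and 5.43 CPM in labelled libraries and at 2.72, 92.8 and 24.2 CPM in controls, with overlap. Aldh1l1 was at or near 0 in all 6 libraries.

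Since CPM does not allow genes to be ranked against each other, levels were also set per transcript length and scaled to the same total in every library. On that scale the order over the libraries labelled Jun knockdown was Dbi (854 ± 231), Clu (96.6 ± 83.3), Slc1a3 (65.1 ± 1.602), Crym (51.2 ± 55.2), Rlbp1 (29.0 ± 49.0), Vim (20.02 ± 18.6), Dkk3 (10.7 ± 11.7), Apoe (5.43 ± 5.16), Glul (3.49 ± 2.84) and Aqp4 (3.24 ± 4.80; mean ± SD, n = 3). In controls it was Clu (846 ± 77.3), Dbi (621 ± 244), Crym (383 ± 135), Rlbp1 (217 ± 82.8), Apoe (127 ± 41.2), Slc1a3 (52.3 ± 21.9), Glul (44.9 ± 39.7), Dkk3 (34.0 ± 25.6), Vim (32.1 ± 11.2) and Aqp4 (0.0606 ± 0.0953). In the labelled libraries Dbi lay above each of the other 9 genes in each library, and below it the ranges of neighbours in the order overlapped at every step. In controls they overlapped at every step but those between Apoe and Slc1a3 and between Vim and Aqp4. On this scale Slc1a3 includes the short retained-intron form.

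The summed level of the 10 genes was 635, 566 and 813 CPM in the libraries labelled Jun knockdown and 2689, 2716 and 2859 CPM in controls. Controls were close to each other, with Clu at 40.6% to 45.9% of the sum. Labelled libraries differed more in makeup. Dbi made up 41.3%, 35.9% and 52.7% of the sum in replicates 1, 2 and 3, and Clu 19.7%, 28.2% and 1.17%. Rlbp1 held 14.97% in replicate 3 and under 0.2% in replicates 1 and 2, Crym 16.5% in replicate 1, and Dkk3 7.37% in replicate 2. Relative to the sum of the rod list, the 10 genes stood at 6.34%, 8.16% and 9.57% in the labelled libraries. In controls they stood at 3.23%, 2.57% and 3.27%. This summed ratio was higher in each labelled library, where both sums were lower. Dbi and Slc1a3, whose levels overlapped between groups, weigh heavily in the labelled sums. Slc1a3 made up 19.6%, 18.4% and 16.02% of the sum there, against 2.35% to 5.53% in controls. Its shares use the gene values, which include the retained-intron form and depend on how transcripts were combined. Dbi made up 6.91% to 14.9% in controls. Whether the other genes were higher beside rod RNA was not tested.

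**Figure D4:**
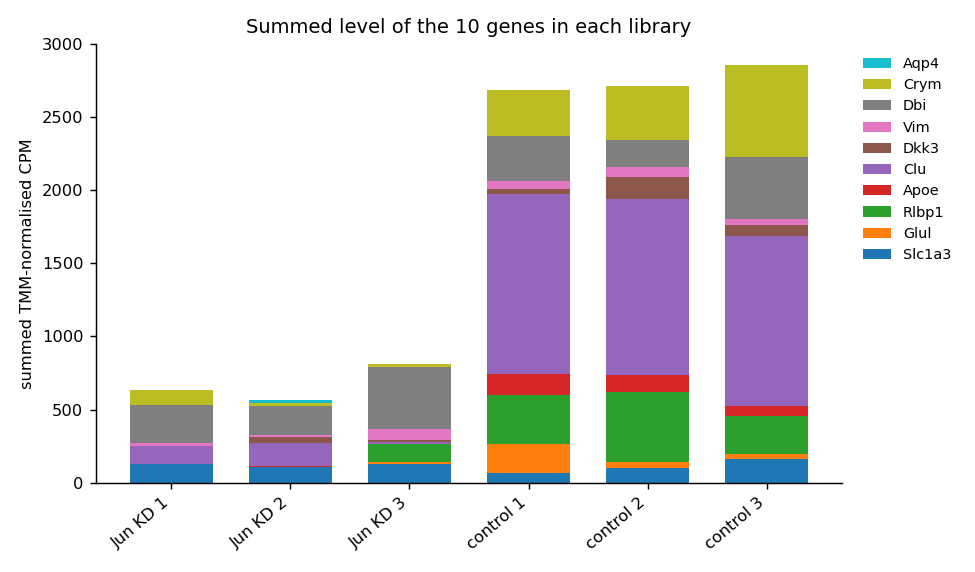
Summed TMM-normalised CPM of the 10 genes (y axis, from 0) in each library, the libraries labelled Jun knockdown on the left and controls on the right, with each gene's part in colour. The sum is 566 to 813 CPM in labelled libraries and 2689 to 2859 CPM in controls, where Clu (purple) is the largest part.

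Labelled libraries were also less alike for most of the 10 genes. The range between the lowest and highest library, in log2 CPM (prior count 2), had a median over the 10 genes of 3.56 in the libraries labelled Jun knockdown and 1.08 in controls. Over all tested genes these medians were 2.70 and 2.37. For Clu the range was 4.06 in the labelled libraries and 0.09 in controls, and for Rlbp1 it was 7.37 and 0.89. Dbi ranged over 1.07 in the labelled libraries and 1.18 in controls, and Slc1a3 over 0.32 and 1.32, so these genes went the other way. Some wide labelled ranges rest partly on few counts: Rlbp1 held 18.2 and 12.2 in replicates 1 and 2, and Dkk3 held 6.6 in replicate 1. Correlation with the mean of the other 9 genes was taken over the 6 libraries, a description in which both groups and their depths take part. It was 0.974 for Apoe, 0.931 for Glul, 0.779 for Rlbp1, 0.773 for Dkk3 and 0.597 for Vim. For Crym and Clu, both lower without overlap, it was 0.513 and 0.510. It was 0.123 for Dbi, -0.358 for Aqp4 and -0.368 for Slc1a3.

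Genes outside the list whose log2 CPM followed the mean of the 10 most closely over the 6 libraries were Psmd11 (Pearson r = 0.999), Rnf2 (0.993), Tmem237 (0.991), Tcp1 (0.990) and Pias1 (0.989), from 10618 genes compared. Psmd11, a proteasome subunit, stood at 78.3, 136 and 153 CPM in the libraries labelled Jun knockdown and at 310, 266 and 273 CPM in controls. Rnf2, a ubiquitin ligase of Polycomb complexes, stood at 7.69, 34.5 and 50.4 CPM in labelled libraries and at 479, 551 and 399 CPM in controls. In all, 460 genes (4.33%) had an r of at least 0.9, and the libraries of each group share their depth range.

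Wider lists of the same biology gave no calls in edgeR as reported, except among retinoid-cycle genes. Of 33 tested genes among 40 further Müller glia genes, 0 passed in edgeR and 8 had an unadjusted p under 0.05, against 16.8% of all tested genes. With DESeq2, 4 of 36 with a value passed as lower, and with limma-voom 2 of 33 did, against 7.38% and 2.46% of all genes. The median log2 fold change of the 33 was -0.72, with 19 negative and 14 positive. Of the 33, 10 were lower without overlap and 2 were higher without overlap (Nfib and Hes1), against 15.7% and 12.6% of all tested genes. The smallest p-values belonged to Car14, Car2 and S100a16. Car14, a membrane carbonic anhydrase, stood at 1.29, 0.338 and 0.589 CPM in the libraries labelled Jun knockdown and at 29.7, 62.3 and 124 CPM in controls (adjusted p = 0.0533). Car2, the cytosolic carbonic anhydrase, stood at 340, 332 and 325 CPM in labelled libraries and at 962, 1168 and 765 CPM in controls (edgeR log2 fold change -1.54, SE 0.33, adjusted p = 0.0553). S100a16, a calcium-binding protein, stood at 0.272, 0 and 0.262 CPM in labelled libraries and at 30.2, 56.6 and 25.4 CPM in controls (adjusted p = 0.0791).

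In the glutamate and glutamine list, 0 of 13 tested genes passed in edgeR, with a median log2 fold change of -0.12. An unadjusted p under 0.05 was reached by 4 of the 13, against 16.8% of all tested genes. Among those with the smallest p-values beside Glul was Slc38a3, a glutamine transporter that is also on the Müller glia list. Slc38a3 stood at 14.4, 31.8 and 28.3 CPM in the libraries labelled Jun knockdown and at 108, 154 and 82.5 CPM in controls (adjusted p = 0.211). Of 10 tested retinoid-cycle genes, 2 passed as lower and 0 as higher, where 1.35% of all tested genes passed as lower. The median of these 10 was -1.58. Both that passed are known from photoreceptors: Rdh12, a retinol dehydrogenase, was called lower at a log2 fold change of -2.48 (SE 0.33, adjusted p = 0.0108), and Rbp3, the interphotoreceptor retinoid carrier, at -2.70 (SE 0.42, adjusted p = 0.0197). The glial retinoid gene Rlbp1 was not among them.

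Promoters of 3 of the genes that were lower without overlap, and of Slc1a3, whose gene level overlapped, are shown because the study concerns Jun, which binds DNA as part of AP-1. They are the 250 bases before the RefSeq start (GRCm38.p6), 5′ to 3′ on the gene's strand. Windows of 6 of the 10 genes were searched. The RefSeq table held none for Clu, Dkk3 and Crym, and Aqp4 was left out of the search. Apoe has 3 windows there and Dbi 2, and the window nearest to the start of the form with most counts in controls was used. For Apoe the RefSeq start of that window lies 180 bases from the GENCODE start of its main form, and the other 2 Apoe windows were not searched. For Vim, searched but not shown, the RefSeq start lies 359 bases from the GENCODE start of its main form. The Vim window, chr2:13574061-13574310, lies inside the deposited Vim gene, which starts at 13573927. The last 21 bases of the Rlbp1 window lie in the first exon of the short-exon form as GENCODE has it. The positions are chr1:153899679-153899928 (plus) for Glul, chr7:79387028-79387277 (minus) for Rlbp1, chr7:19699189-19699438 (minus) for Apoe and chr15:8710808-8711057 (minus) for Slc1a3. Capitals mark matches to the motifs searched.
Glul: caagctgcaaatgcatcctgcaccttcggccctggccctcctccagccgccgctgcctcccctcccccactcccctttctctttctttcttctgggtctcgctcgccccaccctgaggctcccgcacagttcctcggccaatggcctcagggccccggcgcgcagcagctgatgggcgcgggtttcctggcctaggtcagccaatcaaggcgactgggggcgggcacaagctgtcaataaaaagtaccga
Rlbp1: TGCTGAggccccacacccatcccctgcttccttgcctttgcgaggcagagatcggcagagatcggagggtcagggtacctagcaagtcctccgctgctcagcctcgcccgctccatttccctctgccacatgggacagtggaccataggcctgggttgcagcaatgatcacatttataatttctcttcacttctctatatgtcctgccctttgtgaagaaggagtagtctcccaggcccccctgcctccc
Apoe: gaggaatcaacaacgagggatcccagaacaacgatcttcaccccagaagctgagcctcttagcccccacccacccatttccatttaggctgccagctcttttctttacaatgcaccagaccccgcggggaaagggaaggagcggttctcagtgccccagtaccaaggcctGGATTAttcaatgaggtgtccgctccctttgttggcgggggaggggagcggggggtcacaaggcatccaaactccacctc
Slc1a3: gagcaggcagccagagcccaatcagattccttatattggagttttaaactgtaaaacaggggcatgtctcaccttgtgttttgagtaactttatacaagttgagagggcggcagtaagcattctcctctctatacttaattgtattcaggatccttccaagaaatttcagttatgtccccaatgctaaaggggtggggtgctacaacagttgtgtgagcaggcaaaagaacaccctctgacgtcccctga
The motifs, searched on both strands, were TGANTCA (AP-1), TGACGTCA (cAMP response element), TGCTGA (half-site of Maf-family factors such as NRL) and TAATCC (core of CRX sites). None of the 6 windows held TGANTCA or TGACGTCA, which 6.75% and 1.55% of all 32851 windows of this length hold. Rlbp1 held 1 TGCTGA (16.1% of windows) and Apoe 1 TAATCC on the opposite strand (6.25%), and the other 4 windows held none of the 4 motifs. These are matches of letters in a short window and say nothing about binding.

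**Figure D5:**
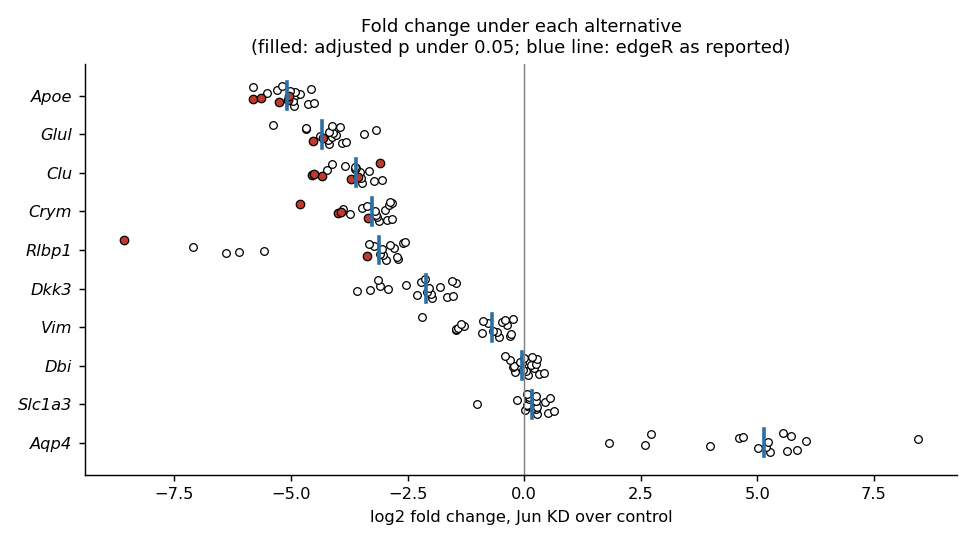
Log2 fold change of each gene in libraries labelled Jun knockdown over controls under up to 18 alternative settings (points, filled where the adjusted p was under 0.05) with the reported edgeR value as a blue line. Apoe, Glul, Clu, Crym and Rlbp1 stay below 0 under each, Dbi lies on both sides of 0, and the lowest Rlbp1 point, -8.57, is the fit without labelled replicate 3.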

How the data were processed

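RNA was measured in 6 libraries of sorted rods. Per the submitters' processing notes, Trimmomatic 0.39, kallisto 0.44.0 and edgeR 3.28.1 were used, in roles not given there. Per the labels' protocols, cDNA came from a SMART-seq v4 kit and libraries from a Nextera XT kit. The authors deposited estimated counts per gene and per transcript, not whole numbers, and a normalised gene table. That deposited table is named CPM but sums to 1250540 to 2385210 per library, so it was taken as a signal with 1 scale factor per library.

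Estimated counts were rounded, passed through filterByExpr, TMM-scaled and tested on group alone with edgeR 4.0.16 (R 4.3.3), with Benjamini-Hochberg adjustment over all tested genes or transcripts and a threshold of 0.05. A standard error is the log2 fold change over the square root of F, and intervals are 95%. Levels per length used GENCODE vM21 transcript lengths (134456 of 136550 transcripts matched). Members and lists were chosen with earlier results of these data known. The text names the 10 genes, Jun, the genes of each wider list that passed or else the 3 with the smallest p, and the 5 most alike in pattern; 1 gene that this rule names is not reported here. Forms under 5% of a gene's transcript counts were counted but not named. Sox2, Sox9, Kcnj10, Gpm6b, Nfib, Hes1, Slc1a2, Gfap and Aldh1l1, from the lists, were named after their values were seen. Alternatives were other scalings, filters, tools and values, thinning, each library left out in turn and a replicate block. Scripts were tested on simulated counts. No sample column was left unused (0 columns).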

Additional observations from a re-analysis of the deposited data

How the results depend on the processing

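Depth and group could not be separated here, since the libraries labelled Jun knockdown were all shallower, and levels under the worth of 3 counts (0.0333 to 0.204 CPM by library) are not resolved. Glul, Rlbp1, Apoe, Clu, Dkk3, Vim and Crym kept a negative log2 fold change in 18 of 18 alternatives, and Aqp4 a positive one in 16 of 16 (it was filtered out at a minimum of 1 CPM and after thinning). Slc1a3 turned to -1.02 with transcript sums and to -0.15 without control replicate 1, in a range of -0.15 to 0.55 over the libraries left out in turn. Dbi turned to 0.070 with median-of-ratios scaling, 0.31 with upper quartile scaling, 0.42 with library totals, 0.045 with the 1 CPM minimum, 0.20 with limma-voom, 0.15 with transcript sums and 0.25 after thinning, and ranged over -0.42 to 0.28 when each library was left out, with values above 0 without control replicate 3 (0.28) and labelled replicates 1 (0.00033) and 2 (0.17). Those 3 scalings moved the median of all tested genes from -0.12 to 0.03, 0.27 and 0.38. Of the 10 genes, none passed as reported, 5 passed with no filter (Glul, Rlbp1, Apoe, Clu, Crym), 3 with DESeq2, 2 with limma-voom, 3 with limma-trend on log2 of the deposited signal with 0.5 or 2 added (Apoe, Clu, Crym), and 0 to 2 when 1 library was left out. Of the other Müller glia genes, 5 of 40, 4 of 36, and 2, 3 and 4 of 33 passed in these settings, and 1 of 34 with transcript sums. Genes called, 214 as reported, numbered 737 with no filter, 1999 with DESeq2, 442 with limma-voom, 615 and 553 with limma-trend, and 36 to 110 without 1 library. Lower calls made up 173 of 214 as reported, 89 of 144 with upper quartile scaling and 79 of 147 with library totals. Transcripts called, 137 as reported, numbered 64 with library totals, 1085 with no filter and 22 to 101 without 1 library. Same-numbered libraries did not deviate together (correlations 0.00042, 0.00804 and -0.0151), and the replicate block gave 97 genes, 82 transcripts and 0 of the 10. The causes of these changes were not tested.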
